A study of Homo sapiens with 6 samples.

Results

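The genes described here are 36 members of the integrated stress response: the kinases of the initiation factor eIF2 and their substrate, the transcription factor ATF4 and its targets, and amino acid transporters. They were chosen by symbol, with earlier results of these data known, and all 36 were found among the 35473 gene rows of the expression table. In this response a stress-sensing kinase phosphorylates the alpha subunit of eIF2, which slows most protein synthesis while translation of ATF4 messenger RNA increases. ATF4 then switches on genes for amino acid uptake and synthesis, redox balance and, under lasting stress, cell death, often as a dimer with a C/EBP protein. ATF4 is controlled mainly at translation, so its transcript level, as measured here, is not a level of the protein.

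Messenger RNA was measured by polyA-selected sequencing in IMR32 cells, an established human neuroblastoma line. Cells received 5 µM CBR-470-1, a small molecule, or the same volume of its solvent DMSO for 24 h, with 3 independent biological replicates per group. The study concerns chemical control of glycolysis and its link to KEAP1-NRF2 signalling, and the comparison asks which transcripts differed after the compound. Each gene has a TPM value per library, a scaled share of the library's transcripts after correction for transcript length. TPM keeps no depth, so the counting error behind a value is unknown. Precision is judged from the spread of the 3 replicates, which the test pulls towards that of other genes of similar level.

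The libraries matched their label. All 8 adrenergic neuroblastoma markers examined, among them HAND2 and MYCN, averaged at least 1 TPM and together summed to 2435 to 2737 TPM. None of the 4 blood, 3 epithelial and 3 endothelial markers averaged 1 TPM, and each of those lists summed to at most 0.842 TPM in any library. The 6 mesenchymal and Schwann markers summed to 12.2 to 14.6 TPM in DMSO and 14.1 to 14.8 TPM in CBR-470-1.

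After 24 h with CBR-470-1 no member passed the test, in either direction. Of the 36 members, 31 averaged at least 1 TPM over the 6 libraries and were tested in limma together with every other gene of that level. With limma, 0 rose and 0 fell at a Benjamini-Hochberg adjusted p under 0.05, against 1.97% of the 13470 genes tested. Over all genes 152 rose (1.13%) and 113 fell (0.839%), or 124 and 237 after median centring. In bulk samples such as these, fewer cells of a kind and less RNA per cell cannot be told apart. At an unadjusted p under 0.05 there were 7 members, 4 higher and 3 lower, or 22.6% of the members tested against 23.5% of all genes tested. The median log2 difference, CBR-470-1 minus DMSO, was 0.03 over the members and 0.03 over all genes tested. Median centring moved every estimate down by the same amount, to a median of -0.0090 over all genes tested. Fold changes are differences of log2(TPM + 1), a scale that understates the change of low genes.

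The differences of single members were also bounded. Each of the 31 tested members had a 95% confidence interval inside -1 to 1 on the log2 scale, and for 27 of them it lay inside -0.5 to 0.5. The same held for 13006 and 10500 of all 13470 genes tested. The interval reached furthest up for JDP2, to 0.56, and furthest down for TRIB3, to -0.50. For scale, the highest log2 difference of all genes tested was that of NQO1, a quinone reductase gene and standard NRF2 target. It was 3.58 in the same fit (SE 0.115, limma adjusted p = 2.67e-05). The median absolute log2 difference was 0.114 over the tested members and 0.119 over all genes tested. In 11 of the 31 tested members, or 35.5%, the 3 CBR-470-1 libraries did not overlap the 3 DMSO libraries, 5 of them higher and 6 lower. This compares with 30.2% of all genes tested (17.7% higher and 12.5% lower).

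**Figure D1:**
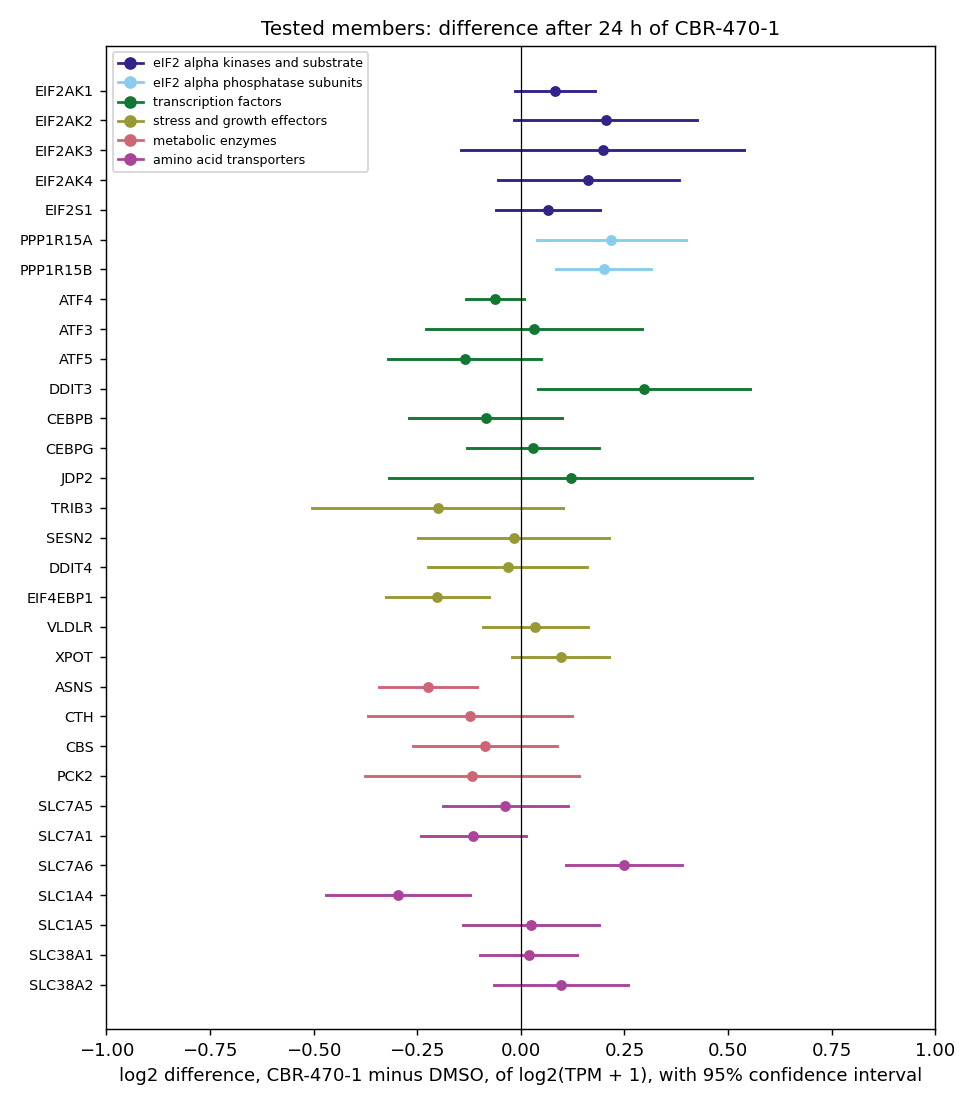
Log2 difference of log2(TPM + 1), CBR-470-1 minus DMSO, for the 31 tested members, coloured by role, with points for the limma estimate and bars for its 95% confidence interval. Estimates lie between -0.30 (SLC1A4) and 0.30 (DDIT3), and every interval ends inside -1 to 1.

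ATF4 is known to bind with C/EBP partners at a composite element written TGATGNAA, or TTNCATCA when read on the other strand. RefSeq promoter windows of GRCh38.p14, 250 bases before to 50 after a transcription start, were available for 32 of the 36 members. The element was present on either strand in a window of 10 of those 32 genes (31.2%), compared with 4.46% of the 27305 genes with a window, or 20% of 50 member windows against 3.62% of all 35116. The matching members were ASNS, PPP1R15B, SLC1A4, SLC7A1, SLC1A5, SLC38A1, ATF3, CEBPG, JDP2 and FGF21. A match is a stretch of letters and not a shown binding site. Printed here, 5′ to 3′ with the element in capitals, are the windows that hold it among members with an unadjusted p under 0.05, and that of CHAC1, a further ATF4 target that was called. They lie at chr7:97872359-97872658 (minus strand) for ASNS, chr2:64989149-64989448 (plus) for SLC1A4, chr1:204411768-204412067 (minus) for PPP1R15B and chr15:40953221-40953520 (plus) for CHAC1.
ASNS: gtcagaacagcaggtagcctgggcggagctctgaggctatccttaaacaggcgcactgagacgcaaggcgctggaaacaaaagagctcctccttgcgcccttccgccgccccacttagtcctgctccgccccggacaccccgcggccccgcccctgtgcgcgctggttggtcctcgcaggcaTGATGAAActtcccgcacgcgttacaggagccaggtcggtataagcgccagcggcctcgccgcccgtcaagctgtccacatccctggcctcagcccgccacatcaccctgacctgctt
SLC1A4: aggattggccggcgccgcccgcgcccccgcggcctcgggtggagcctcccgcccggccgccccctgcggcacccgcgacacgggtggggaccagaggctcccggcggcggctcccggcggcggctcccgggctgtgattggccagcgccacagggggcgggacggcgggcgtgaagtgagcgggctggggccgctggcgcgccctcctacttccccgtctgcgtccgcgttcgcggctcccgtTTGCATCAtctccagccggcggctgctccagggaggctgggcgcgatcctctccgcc
PPP1R15B: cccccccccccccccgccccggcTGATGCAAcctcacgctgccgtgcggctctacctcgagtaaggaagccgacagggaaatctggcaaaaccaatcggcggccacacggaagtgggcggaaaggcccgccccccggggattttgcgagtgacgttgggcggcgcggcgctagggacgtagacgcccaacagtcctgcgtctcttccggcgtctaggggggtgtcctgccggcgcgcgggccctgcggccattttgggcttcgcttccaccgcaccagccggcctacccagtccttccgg
CHAC1: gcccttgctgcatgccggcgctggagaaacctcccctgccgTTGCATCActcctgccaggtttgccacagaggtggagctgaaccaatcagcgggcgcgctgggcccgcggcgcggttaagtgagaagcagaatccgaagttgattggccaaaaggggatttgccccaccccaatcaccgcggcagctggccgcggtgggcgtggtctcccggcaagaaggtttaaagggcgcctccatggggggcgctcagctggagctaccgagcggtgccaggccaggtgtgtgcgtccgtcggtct
Counted from the start site, the element began at base -68 in ASNS, -227 in PPP1R15B, -209 in CHAC1 and -7 in SLC1A4. Over all 9 tested members with the element, the log2 difference ran from -0.30 for SLC1A4 to 0.20 for PPP1R15B and was positive in 6. Of those 6, ATF3, CEBPG, JDP2, SLC1A5 and SLC38A1 were at 0.02 to 0.12 and changed sign under an alternative.

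The eIF2 alpha kinases, each of which senses a different stress, were all expressed and none passed. EIF2AK1 (HRI), the haem-regulated kinase, was the most abundant. The DMSO libraries held 184, 181 and 171 TPM of it, and the CBR-470-1 libraries 193, 186 and 188 TPM. Every CBR-470-1 library was above every DMSO library, but the log2 difference was only 0.08 (95% confidence interval -0.015 to 0.18, limma adjusted p = 0.280).

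EIF2AK4 (GCN2), which senses uncharged tRNA, had 19.6, 20.4 and 17.5 TPM in DMSO and 19.2, 21.8 and 23.7 TPM in CBR-470-1. EIF2AK3 (PERK), the kinase of the endoplasmic reticulum, had 16.3, 17.2 and 21.7 TPM in DMSO and 17.3, 24.2 and 22.4 TPM in CBR-470-1. EIF2AK2 (PKR), which binds double-stranded RNA, had 12.1, 14.1 and 11.9 TPM in DMSO and 13.3, 15.9 and 15.2 TPM in CBR-470-1. For these lower kinases the groups overlapped and the spread was wide, with log2 differences of 0.16, 0.20 and 0.20 and limma adjusted p-values of 0.331, 0.450 and 0.243. The EIF2AK3 estimate ran from 0.10 without CBR-470-1 replicate 2 to 0.33 without CBR-470-1 replicate 1. In DMSO the order was EIF2AK1, EIF2AK4, EIF2AK3 and EIF2AK2. The means of EIF2AK4 (19.2 ± 1.48 TPM, SD, n = 3) and EIF2AK3 (18.4 ± 2.93 TPM) did not differ beyond their spread.

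EIF2S1, the eIF2 alpha subunit that all these kinases phosphorylate, was among the most abundant members. Its levels were 265, 254 and 236 TPM in DMSO and 251, 269 and 269 TPM in CBR-470-1. The groups overlapped (log2 difference 0.07, limma adjusted p = 0.494).

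PPP1R15A and PPP1R15B guide protein phosphatase 1 to eIF2 alpha and so end the response, and the former (GADD34) is itself an ATF4 pathway target. PPP1R15B, the constitutive form, had 47.1, 46.0 and 44.9 TPM in DMSO and 52.3, 54.8 and 52.0 TPM in CBR-470-1. PPP1R15A had 7.51, 8.53 and 8.34 TPM in DMSO and 9.77, 9.28 and 9.78 TPM in CBR-470-1. For both genes every CBR-470-1 library was above every DMSO library, by 15.2% and 18.2% in the means, yet neither passed. The log2 difference was 0.20 for PPP1R15B (SE 0.0487, unadjusted p = 0.00402, limma adjusted p = 0.0779) and 0.22 for PPP1R15A (SE 0.0771, unadjusted p = 0.0239, limma adjusted p = 0.150).

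ATF4 was the most abundant member, at rank 407 of the 13470 genes tested by mean level. Its values were 357, 355 and 353 TPM in DMSO and 341, 336 and 341 TPM in CBR-470-1, so its libraries were tightly grouped and those with the compound were all lower. The means were 355 ± 1.79 and 339.7 ± 2.87 TPM (SD, n = 3 each), and the ratio of CBR-470-1 to DMSO was 0.957. On the log2 scale it was -0.06, with a 95% confidence interval of -0.13 to 0.0075 (limma adjusted p = 0.259). The gene (ENSG00000128272.14) spans 39519695 to 39522685 on chromosome 22 in GRCh38 with GENCODE 29.

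Of the other transcription factors tested, DDIT3 had the largest difference, and the estimates of the rest lay between -0.14 and 0.12. DDIT3 (CHOP), the ATF4 target linked to cell death, had 3.93, 4.45 and 3.80 TPM in DMSO and 5.92, 4.68 and 5.10 TPM in CBR-470-1. All CBR-470-1 libraries were above all DMSO libraries, with a log2 difference of 0.30 (SE 0.109, limma adjusted p = 0.161). DDIT3 overlaps MARS on the opposite strand, whose mean was 412 TPM with the solvent and 407 TPM with the compound. Strand is not stated for the libraries, so reads from a shared stretch cannot be told apart. The same limit applies, among others, to EIF2AK1 (AIMP2), EIF2AK2 (GPATCH11), EIF2S1 (ATP6V1D), ATF5 (NUP62), SLC7A6 (SLC7A6OS) and VLDLR (VLDLR-AS1), with the opposite-strand partner in parentheses.

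ATF5, a relative of ATF4 that also responds at translation, had 8.21, 8.37 and 9.07 TPM in DMSO and 7.71, 7.27 and 8.09 TPM in CBR-470-1. Its groups did not overlap either, in the other direction to DDIT3 (log2 difference -0.14, limma adjusted p = 0.341). The stress-induced repressor ATF3, the C/EBP partners CEBPB and CEBPG, and the Jun dimerization protein gene JDP2 overlapped between the groups, with log2 differences of 0.03, -0.08, 0.03 and 0.12 and limma adjusted p-values from 0.550 to 0.884. The JDP2 estimate rested on CBR-470-1 replicate 1, at 12.2 TPM beside 7.505 and 7.47 TPM in the others, and was -0.09 without it. NUPR1, a stress-induced chromatin protein gene, was under the 1 TPM minimum at 0.106 and 0.108 TPM and was not tested.

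**Figure D2:**
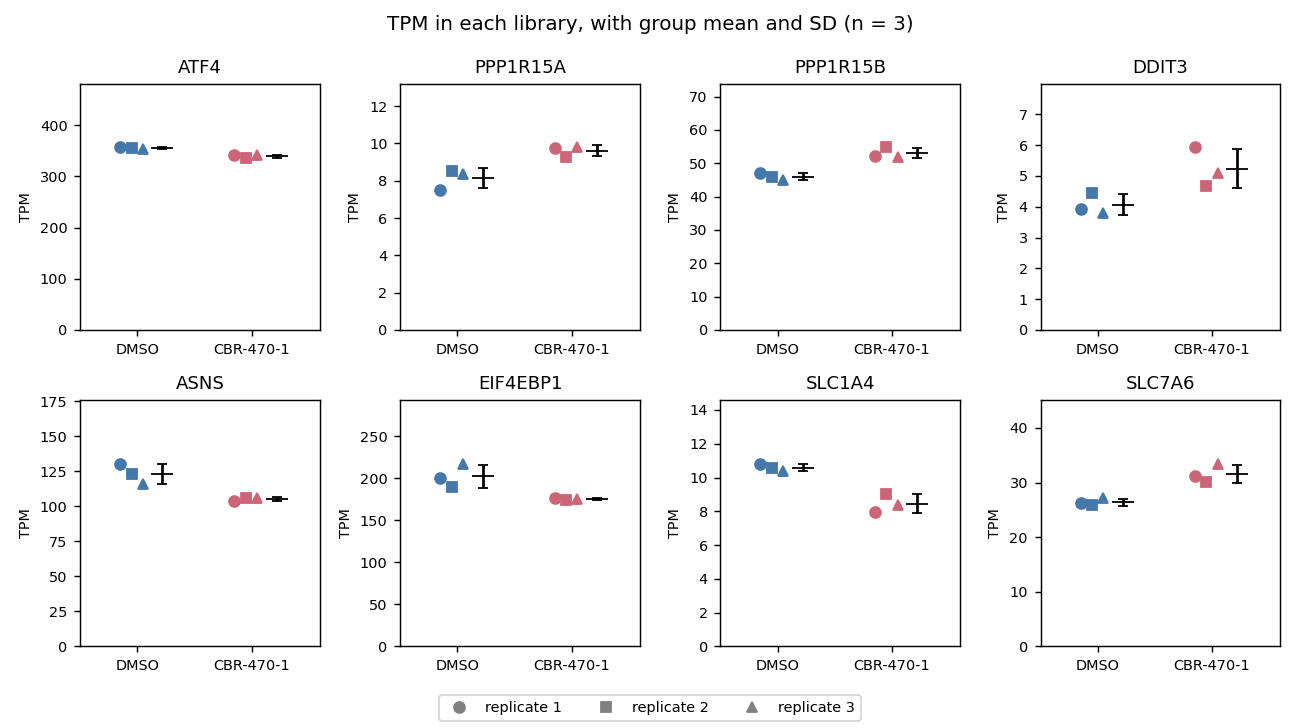
TPM in each library (axes start at 0) for 8 members, with a marker shape per replicate and the group mean ± SD (n = 3) beside the points. The CBR-470-1 libraries lie wholly above DMSO for PPP1R15A, PPP1R15B, DDIT3 and SLC7A6 and wholly below it for ATF4, ASNS, EIF4EBP1 and SLC1A4, and none of these differences passed in limma over all genes.

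Among the effectors of stress and growth control, EIF4EBP1 came closest to the threshold. EIF4EBP1 encodes a binding protein that restrains cap-dependent translation. It had 200, 189.7 and 217 TPM in DMSO and 177, 175 and 175 TPM in CBR-470-1, so every CBR-470-1 library was lower, with a ratio of means of 0.868. The log2 difference of -0.20 (SE 0.053, limma adjusted p = 0.0884) shrank to -0.07 with a GC and length correction (limma adjusted p = 0.373). TRIB3, a pseudokinase induced by ATF4 and DDIT3, had 5.97, 6.11 and 7.06 TPM in DMSO and 6.42, 5.49 and 4.46 TPM in CBR-470-1, with overlap (log2 difference -0.20, limma adjusted p = 0.387). The TRIB3 estimate was -0.09 without CBR-470-1 replicate 3 and -0.31 without CBR-470-1 replicate 1. SESN2 and DDIT4, which restrain the growth kinase complex mTORC1, had means of 3.41 and 3.36 TPM, and of 29.96 and 29.3 TPM (DMSO first). The lipoprotein receptor gene VLDLR (49.9 and 51.2 TPM) and the tRNA exporter gene XPOT (120.4 and 129 TPM) also overlapped between the groups. The limma adjusted p-values of SESN2, DDIT4, VLDLR and XPOT ran from 0.291 to 0.933.

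The metabolic enzymes were the role in which all 4 estimates were negative, and of these rows only that of ASNS had groups that separated. CBS shares its reads with a near-identical copy, and the sum of both copies, given below, was also lower without overlap. The estimates of the CBS row alone and of PCK2 came close to 0 with the GC and length correction, at -0.024 and -0.034. They also did so with 1 library left out, at -0.020 without CBR-470-1 replicate 2 and -0.011 without CBR-470-1 replicate 1. ASNS, which makes asparagine and is a classic ATF4 target, had 130.2, 123 and 116 TPM in DMSO and 104, 106 and 106 TPM in CBR-470-1. Its mean was thus 14.6% lower, from 123 ± 6.95 to 105 ± 1.38 TPM (SD, n = 3 each). The log2 difference was -0.22 (SE 0.0506, 95% confidence interval -0.34 to -0.11), with the lowest adjusted p among the members (limma adjusted p = 0.0688). ASNS passed in 1 of 17 alternatives, median centring (log2 difference -0.26, limma adjusted p = 0.0452), where 2.68% of all genes tested were called. Over all alternatives its adjusted p ran from 0.0452 to 0.181. ASNS (ENSG00000070669.16) spans 97852118 to 97872542 on the minus strand of chromosome 7 in GRCh38.

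The transsulphuration enzymes CTH and CBS, which turn homocysteine into cysteine, and the mitochondrial phosphoenolpyruvate carboxykinase PCK2 overlapped between the groups. CTH was at 9.01 ± 1.26 and 8.15 ± 0.248 TPM, and PCK2 at 9.98 ± 0.644 and 9.17 ± 1.33 TPM (SD, n = 3 each). CBS had 130.3, 127 and 134 TPM in DMSO and 137, 112 and 121 TPM in CBR-470-1, with overlap (limma adjusted p = 0.512). GRCh38 carries a near-identical copy, CBSL, so the division of reads between the copies is uncertain. The CBSL row had 85.2, 96.5 and 98.3 TPM in DMSO and 70.1, 76.4 and 75.2 TPM in CBR-470-1, a separation in the lower direction that also missed the threshold (log2 difference -0.33, limma adjusted p = 0.0592, or 0.0458 with median centring). The sum of both copies was 224 ± 8.56 TPM with the solvent and 197 ± 9.45 TPM with the compound (SD, n = 3 each), without overlap, and was not tested.

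Of 7 amino acid transporters tested, 0 passed, against 1.97% of all genes tested. Their estimates were positive in 4 and negative in 3, and those of SLC7A5, SLC1A5 and SLC38A1 changed sign under an alternative. The largest differences pointed in opposite directions. SLC1A4 (ASCT1), a carrier of alanine, serine and cysteine, had 10.8, 10.6 and 10.4 TPM in DMSO and 7.93, 9.02 and 8.40 TPM in CBR-470-1. SLC7A6 (y+LAT2), an exchanger of basic and neutral amino acids, had 26.2, 25.9 and 27.1 TPM in DMSO and 31.2, 30.1 and 33.4 TPM in CBR-470-1. Thus SLC1A4 was lower by 20.2% in the mean and SLC7A6 higher by 19.6%, both without overlap. The log2 differences were -0.30 for SLC1A4 (SE 0.0742, limma adjusted p = 0.0818) and 0.25 for SLC7A6 (SE 0.0595, limma adjusted p = 0.0755). Over the 17 alternatives the adjusted p of SLC1A4 ran from 0.0557 to 0.203 and that of SLC7A6 from 0.0624 to 0.205, so neither passed in any of them.

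SLC7A1 (CAT1), the arginine and lysine carrier, had 26.8, 26.5 and 25.9 TPM in DMSO and 24.0, 25.2 and 23.7 TPM in CBR-470-1, a small separation downward (log2 difference -0.11, limma adjusted p = 0.257). The glutamine carriers were abundant and nearly level between the groups. SLC38A2 (SNAT2) stood at 142 ± 10.6 and 151 ± 9.52 TPM, SLC38A1 (SNAT1) at 128 ± 6.60 and 129 ± 3.45 TPM, and SLC1A5 (ASCT2) at 82.4 ± 3.92 and 84.0 ± 6.91 TPM (SD, n = 3 each, DMSO first). SLC7A5 (LAT1), the exchanger that brings leucine in, stood at 39.2 ± 2.86 and 38.1 ± 0.924 TPM. Their log2 differences were 0.10, 0.02, 0.03 and -0.04, with limma adjusted p-values from 0.429 to 0.854. In DMSO the order was SLC38A2, SLC38A1, SLC1A5, SLC7A5, SLC7A1, SLC7A6 and SLC1A4, in which SLC38A2 and SLC38A1 overlapped between libraries. SLC7A1 and SLC7A6 also overlapped there, but in the CBR-470-1 libraries they changed places in the order, with SLC7A6 above SLC7A1 in all 3. SLC7A3 (CAT3) was under 0.03 TPM in every library (highest 0.0249) and was not tested.

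The secreted products of the response were at the bottom of the range, and none of the 3 could be tested. STC2, stanniocalcin, had 0.514, 0.728 and 0.473 TPM in DMSO and 0.423, 0.402 and 0.271 TPM in CBR-470-1, lower without overlap. GDF15, a stress cytokine, had 0.184, 0 and 0.427 TPM in DMSO and 0.208, 0.101 and 0.0496 TPM in CBR-470-1. FGF21, a metabolic hormone, was listed at 0 in all 6 libraries.

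Other genes of the pathway, listed by role, gave 5 calls among the 96 tested of 109 listed, 3 higher and 2 lower, or 5.21% against 1.97% of all genes tested. These lists, too, were chosen with earlier results of these data known. Of 15 genes of eIF2, its exchange factor eIF2B and their regulators, 0 rose and 0 fell in limma, with 2 at an unadjusted p under 0.05, or 13.3% against 23.5% of all genes tested (median log2 difference 0.02). The largest estimates there were 0.28 for DNAJC3, an inhibitor of EIF2AK3 (limma adjusted p = 0.0846), and 0.22 for OMA1, the mitochondrial protease upstream of DELE1 (limma adjusted p = 0.537). OMA1 had 32.6, 27.1 and 17.3 TPM in DMSO and 31.3, 27.9 and 28.4 TPM in CBR-470-1, so DMSO replicate 3 alone stood below the other libraries. DELE1, which relays mitochondrial stress to EIF2AK1 and is named after its values were seen, was lower in every CBR-470-1 library without passing (log2 difference -0.22, limma adjusted p = 0.0665, or 0.0458 with median centring). Of 34 tested further ATF4 targets, 3 rose and 1 fell, or 11.8% against 1.97% of all genes tested (median 0.03). There were 14 of them at an unadjusted p under 0.05, 5 higher and 9 lower, or 41.2% against 23.5% of all genes tested. SLC7A11, named after its values were seen, was in the list of ATF4 targets but under the 1 TPM minimum, and was not tested. It had 0.399, 0.300 and 0.364 TPM in DMSO and 0.555, 0.638 and 0.699 TPM in CBR-470-1, without overlap. Of 22 tested further amino acid transporters, 0 rose and 0 fell in limma, with 7 at an unadjusted p under 0.05, or 31.8% against 23.5% (median 0.00052). The largest estimates in that list were 0.34 for the glutamate carrier SLC1A3 (limma adjusted p = 0.134) and -0.32 for SLC38A10 (limma adjusted p = 0.0672), with SLC43A1 at the same -0.32 (limma adjusted p = 0.244).

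The further ATF4 target that fell was CHAC1, which degrades glutathione. It had 2.18, 2.62 and 2.53 TPM in DMSO and 1.20, 0.930 and 0.911 TPM in CBR-470-1, so every CBR-470-1 library was below every DMSO library. Its log2 difference was -0.78 (SE 0.129, limma adjusted p = 0.0377). The call was lost when any 1 of the 6 libraries was left out, with limma adjusted p from 0.0733 to 0.130. At this low level the fold depended on the pseudocount, with -1.20 at 0.1 TPM and -0.31 at 5 TPM.

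SQSTM1, an autophagy receptor that is also an NRF2 target, had 38.3, 39.7 and 43.5 TPM in DMSO and 67.2, 66.5 and 62.2 TPM in CBR-470-1. It rose by 0.68 on the log2 scale (SE 0.0635, limma adjusted p = 0.00701) and passed in all 6 fits with 1 library left out. Of the 17 alternatives SQSTM1 passed in 16, and it missed with the replicate block (limma adjusted p = 0.0714). MAP1LC3B, which marks autophagosomes, rose by 0.36 (limma adjusted p = 0.0423), and CDKN1A, a cell cycle inhibitor known chiefly as a p53 target, rose by 0.32 (limma adjusted p = 0.0493). Both lost their calls when any 1 library was left out, with limma adjusted p from 0.0765 to 0.138 and from 0.0544 to 0.154. SESN3, SLC3A2 and the serine synthesis genes PHGDH, PSAT1 and PSPH are named after their values were seen, and none passed. SESN3 and SLC3A2 were higher without overlap, with log2 differences of 0.39 and 0.19 (limma adjusted p = 0.0669 and 0.0892). PHGDH, PSAT1 and PSPH had log2 differences of -0.23, -0.20 and -0.31 (limma adjusted p = 0.0592, 0.0640 and 0.0592). All 3 serine synthesis genes passed with median centring (limma adjusted p = 0.0411, 0.0411 and 0.0420). That setting moved every estimate down, and 237 genes were then called lower against 113 in the main setting. TXNIP and SARS, of the same list and also named after their values were seen, passed with median centring too (limma adjusted p = 0.0485 and 0.0458). PSAT1 also passed with the GC and length correction (limma adjusted p = 0.0347). So did TXNIP (limma adjusted p = 0.0483) and, lower as well, the further transporter SLC6A15 (limma adjusted p = 0.0383). With that correction 4 of the other pathway genes were called higher and 4 lower, and with median centring 2 and 8.

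**Figure D3:**
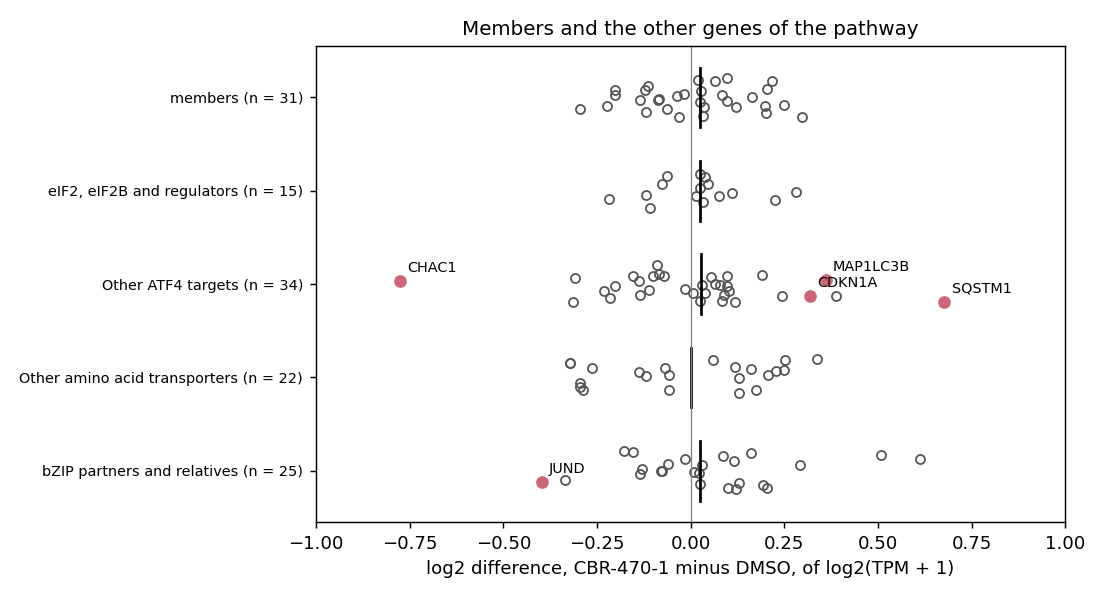
Log2 difference of log2(TPM + 1), CBR-470-1 minus DMSO, for the tested members and 4 lists of other pathway genes, with 1 circle per gene, filled and named where called at an adjusted p under 0.05, and a bar at each median. The 31 members hold no filled circle, and the medians of all lists lie between 0 and 0.03.

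Transcript GC content moved with the comparison. Over 5 equal bins of all tested genes, from lowest to highest GC, the median log2 difference ran from 0.11 to -0.07. By library, the median deviation from the gene mean in that lowest bin was -0.12 in DMSO replicate 3 and 0.09 in CBR-470-1 replicate 2, the lowest and highest of the 6. The differences of the 31 tested members followed GC content as well, with Pearson's r of -0.43 across genes, which share the same 6 libraries. Removing each library's trend with GC content and transcript length brought that r to 0.0046. Of the members, 0 passed after this correction too, in which 152 genes rose and 111 fell.

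The correction left some members where they were and moved others. ASNS stayed at -0.22 (limma adjusted p = 0.0535), SLC1A4 was at -0.32 (limma adjusted p = 0.0647), SLC7A6 at 0.22 (limma adjusted p = 0.0972) and DDIT3 at 0.34 (limma adjusted p = 0.126). PPP1R15A moved to 0.29 (limma adjusted p = 0.0816) and PPP1R15B to 0.15 (limma adjusted p = 0.0857). ATF4 moved from -0.06 to 0.0071 and EIF2AK2 from 0.20 to 0.10, so the direction of ATF4 depended on this step.

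**Figure D4:**
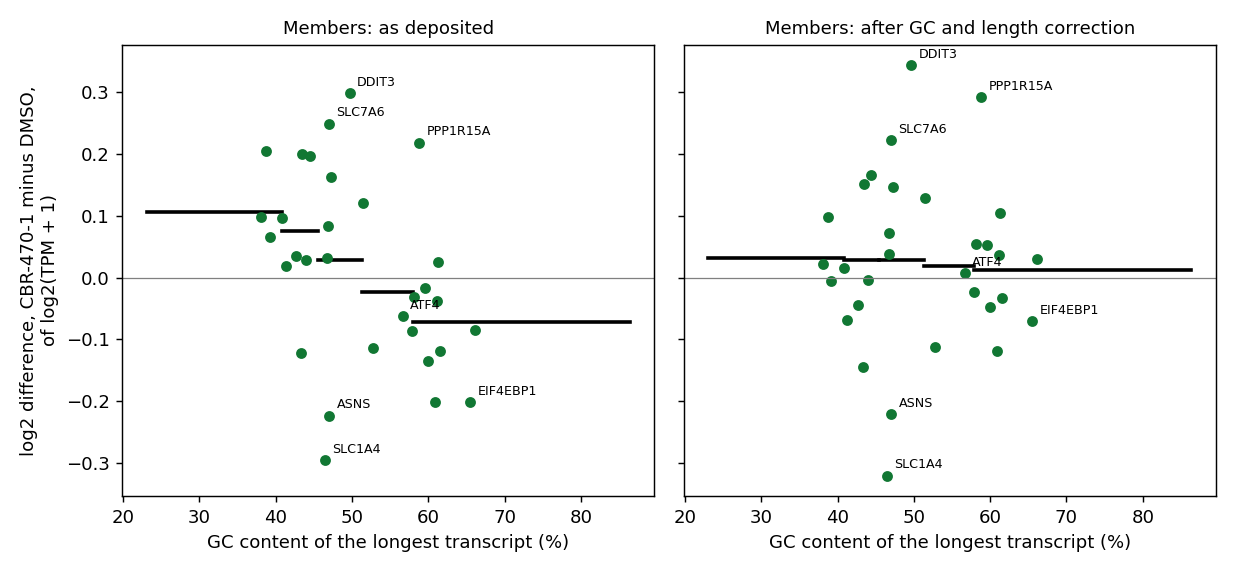
Log2 difference of log2(TPM + 1), CBR-470-1 minus DMSO, against GC content of the longest transcript for the 31 tested members (points), before (left) and after (right) removing each library's trend with GC content and length. Black lines give the median of all tested genes in 5 equal bins of GC content, which runs from 0.11 to -0.07 on the left and from 0.03 to 0.01 on the right.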

How the data were processed

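Libraries were made from polyA-selected RNA of IMR32 cells with a kit whose strand setting is not stated, per the labels' protocols. The expression values used are TPM, which the authors deposited in a single table of genes by libraries. The submitters' processing notes name bcl2fastq, Salmon 0.7.2 and GRCh38. No source used here gives the transcript annotation or how transcripts were summed to genes. Columns summed to 972453 to 973696 TPM. A TPM value is a share, so a rise of some genes lowers others.

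Of 35473 rows, the 13470 whose mean over all libraries reached 1 TPM were analysed as log2(TPM + 1) in limma 3.58.1 under R 4.3.3. Treatment was the sole term, the variance prior followed the mean level, and two-sided p-values were adjusted by Benjamini-Hochberg over these genes, with calls under 0.05. Means and SDs are of linear TPM. The script was tested on simulated data. The members and lists were chosen with earlier results of these data known. All members are accounted for by role. Values per library are given for ATF4, the kinases, EIF2S1, the 3 most abundant members, and members with an unadjusted p under 0.05 or groups that do not overlap. TRIB3, CBS and GDF15 are given so as well, chosen after their values were seen. From each further list the called genes and the 2 largest differences are named. GC content, length and coordinates are from GENCODE 29, which matched 34740 of 35473 rows by name. KIAA0141 was read as DELE1. Promoter sequences are from RefSeq. Alternatives were 2 pseudocounts, 2 filters, 2 scalings, no variance trend, a robust prior, a replicate block, a GC and length correction, a stricter threshold and each library left out.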

Additional observations from a re-analysis of the deposited data

How the results depend on the processing

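The count of members called was 0 in each direction in the main setting and under all 17 alternatives but median centring, which called 1 lower, ASNS. The number of calls over all genes depended far more on the setting, for causes that were not tested beyond the number of genes or samples. With no filter it was 54 higher and 28 lower, with a filter of 5 TPM 245 and 183, with no variance trend 51 and 32, at an adjusted p under 0.01 16 and 6, and with median centring 237 were lower. With 1 library left out it ran from 14 to 55 higher and from 4 to 30 lower. Of the other pathway genes, 1 rose and 1 fell with no filter and with no variance trend, 5 rose with a filter of 5 TPM, 1 rose with quantile normalization, 8 fell with median centring and 4 with the GC and length correction. At an adjusted p under 0.01, 1 rose and 0 fell, and with 1 library left out 1 rose and 0 to 1 fell.

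Of the tested members, 12 changed the sign of a difference that was never called. With the GC and length correction the log2 difference was -0.0053 for EIF2S1, 0.0071 for ATF4, 0.030 for CEBPB, -0.0043 for CEBPG, 0.052 for SESN2, 0.053 for DDIT4, -0.044 for VLDLR, 0.037 for SLC7A5 and -0.069 for SLC38A1. With median centring it was -0.0051 for ATF3, -0.0082 for CEBPG, -0.0020 for VLDLR, -0.012 for SLC1A5 and -0.018 for SLC38A1, and ATF3 was at -0.0079 with quantile normalization. With 1 library left out it ran from -0.039 to 0.13 for ATF3, -0.013 to 0.077 for CEBPG, -0.090 to 0.23 for JDP2, -0.048 to 0.035 for SESN2, -0.080 to 0.031 for DDIT4, -0.082 to 0.018 for SLC7A5, -0.025 to 0.091 for SLC1A5 and -0.023 to 0.050 for SLC38A1.

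Same-numbered libraries did not deviate together (correlations of -0.138, -0.0059 and -0.032). With 3 libraries per group this cannot decide whether the replicate numbers pair the samples. These are correlations of deviations from the group means, and none between a DMSO and a CBR-470-1 library was above 0.136. With the replicate block there were 14 higher and 3 lower calls among all tested genes, 0 and 0 among the other pathway genes (SQSTM1 at a limma adjusted p of 0.0714), and 0 among the members. TPM keeps no depth, so the low members cannot be given a detection limit.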

Other observations

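Relatives and possible partners of ATF4 among the basic leucine zipper factors were listed as a further group of 30 genes, of which 25 were tested. In limma 0 rose and 1 fell, against 1.97% of all genes called, and 9 had an unadjusted p under 0.05, or 36% against 23.5% of all genes tested (median log2 difference 0.02). JUND, a subunit of the AP-1 factors, had 80.2, 78.2 and 80.5 TPM in DMSO and 63.5, 58.5 and 58.9 TPM in CBR-470-1, with a log2 difference of -0.40 (SE 0.0497, limma adjusted p = 0.0174). Its transcript was 69.7% GC, and with the GC and length correction it was at -0.27 and did not pass (limma adjusted p = 0.0763). It was also called in only 1 of 6 fits with 1 library left out, the one without CBR-470-1 replicate 1 (limma adjusted p = 0.0458), and had adjusted p from 0.0527 to 0.0955 in the others.

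The largest positive differences in that group did not pass. BATF3, a factor best known from dendritic cells, had 5.22, 4.58 and 6.06 TPM in DMSO and 8.06, 7.88 and 9.88 TPM in CBR-470-1, without overlap (log2 difference 0.61, SE 0.123, limma adjusted p = 0.0592). CREM, a factor that responds to cyclic AMP, had 28.5, 28.2 and 23.0 TPM in DMSO and 38.2, 41.0 and 35.1 TPM in CBR-470-1, also without overlap (log2 difference 0.51, SE 0.0971, limma adjusted p = 0.0513). CEBPE and BATF were listed at 0 in all 6 libraries, and FOS, FOSB and FOSL1 were under 1 TPM on average.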
